A study of Homo sapiens with 2 samples.

Results

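The 10 genes described here encode the proteins by which a cell takes up, reduces, transports, stores, exports and senses iron. They are TFRC, TFR2, STEAP3, SLC11A2, SLC25A37, SLC40A1, FTL, FTH1, ACO1 and IREB2, picked by symbol for these roles out of the 62702 rows of the deposited gene table, and all 10 were found there. The RNA came from K562, an established human chronic myeloid leukemia line that makes globins, in 1 library with a guide RNA (sgRNA_SMC1A) to the gene of the cohesin subunit SMC1A and 1 library with sgRNA_Control. Both groups carried dCas9-KRAB, a Cas9 without cutting activity joined to a repressor domain that lowers transcription where a guide RNA places it, and both bore the genotype label E50_dCas9-KRAB, in which E50 is not explained. The title of both libraries also gives the cells as WT. In both, guides came by lentivirus, puromycin selection at 1 µg/ml ran from day 2 to day 6, and cells with high blue fluorescence of the guide vector were sorted. By its title the series asks how distal genes under 1 enhancer fare inside a small topological domain, and these libraries measured RNA after SMC1A depletion. Each guide had 1 library, so each difference is between 2 libraries, has no replicate check and no test across samples, and its interval covers counting error only.

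Iron bound to transferrin enters erythroid cells through the transferrin receptor, is released and reduced in the endosome, crosses the endosomal membrane, and is passed to mitochondria for heme synthesis or to ferritin for storage. The amounts of several of these proteins are set after transcription. When iron is scarce, the iron regulatory proteins, encoded by ACO1 and IREB2, bind hairpins called iron-responsive elements, which protects the TFRC mRNA through elements in its 3′ UTR and blocks translation of ferritin and ferroportin mRNAs through an element in their 5′ UTR. The measurements here are of mRNA only and say nothing of the proteins.

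Matches to a letter pattern of such hairpins are shown because iron regulatory proteins reach mRNAs through hairpins of this kind. The matches were found in the GENCODE release 29 transcripts (GRCh38) on the RNA strand alone, as a C, any 5 bases and the loop CAGTGN, with the 5 bases on either side of that loop paired at 4 or 5 positions, G-T pairs allowed. Elements with another loop are missed by this pattern, so the matches need not be all elements of an mRNA. The longest coding transcript of each gene in GENCODE's basic set was searched. The sites are written 5′ to 3′ with T for U, and capitals mark the bulged C and the loop.
TFRC 3′ UTR, site 1 (chr3:196050980-196051009, minus strand): ataattatCggaagCAGTGCcttccataat
TFRC 3′ UTR, site 2 (chr3:196050576-196050605, minus strand): cacattatCgggagCAGTGTcttccataat
TFRC 3′ UTR, site 3 (chr3:196050511-196050540, minus strand): gtctgtatCggagaCAGTGAtctccatatg
TFRC 3′ UTR, site 4 (chr3:196050464-196050493, minus strand): gtaattatCgggaaCAGTGTttcccataat
FTL 5′ UTR (chr19:48965333-48965362, plus strand): gtctcttgCttcaaCAGTGTttggacggaa
SLC40A1 5′ UTR (chr2:189580662-189580691, minus strand): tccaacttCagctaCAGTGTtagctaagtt
SLC11A2 3′ UTR (chr12:50988270-50988299, minus strand): gtagccatCagagcCAGTGTgtttctatgg

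The TFRC, FTL and SLC40A1 sites paired at all 5 stem positions and the SLC11A2 site at 4. Among 19641 coding genes, 0.718% held a UTR match with 5 pairs and 4.87% a match with 4 or 5. ACO1 and IREB2 each held a 3′ UTR match with 4 pairs, and STEAP3 held no UTR match. Matches of members were listed only for the 7 with a RefSeq promoter entry, so none is given here for TFR2, SLC25A37 and FTH1. A match is a description of the letters and not a test of binding.

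SMC1A itself had 16.3 CPM (288 counts) with the SMC1A guide and 460.4 CPM (8077 counts) with the control guide, so that the target of the guide was low in the library labelled for it. CPM are counts scaled to library size, here after TMM normalization. The libraries held 16864207 counts with the SMC1A guide and 18349209 with the control guide. All 10 erythroid markers listed for K562 cells had at least 100 counts in sum, among them GATA1 with 111.6 CPM under the SMC1A guide and 164.1 CPM under the control guide. The globin genes HBG1, HBG2 and HBZ of that list were past 2-fold lower, with HBG2 at 1159 CPM with the SMC1A guide and 3713 CPM with the control guide, and HBG1 and HBG2 are near-identical copies between which reads may be divided. Of 14 myeloid markers, 6 were at 0 in each library, including MPO, ELANE and CD163, and their summed level was 60.8 CPM with the SMC1A guide and 43.9 CPM with the control guide. Of 10 lymphoid markers, 3 were at 0 with the SMC1A guide and 5 with the control guide, MS4A1, CD2 and CD8A in both, and the summed level was 29.03 CPM with the SMC1A guide and 19.3 CPM with the control guide. CD3G, with 132 counts with the SMC1A guide and 55 with the control guide (log2 ratio 1.24), was at least 2-fold higher, and CD3D stood at 0.34. Among the myeloid markers with at least 100 counts, CD68 stood at 0.35 and LYZ at 0.42. The 10 fibroblast and epithelial markers summed to 1217 CPM with the SMC1A guide and 1207 CPM with the control guide, with KRT8 the highest at 648.8 and 530.3 CPM and LUM at 0 in both. Of that list, 2 collagen genes were at least 2-fold higher, COL3A1 with 154 counts with the SMC1A guide and 2 with the control guide (log2 ratio 5.68, interval 4.38 to 9.32) and COL1A1 with 233 and 64 counts (1.84), while EPCAM stood at -0.57 and COL1A2 at -0.73. The part of these marker levels in the results below was not tested.

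Among the iron genes, TFRC, the main entry route, had the lowest ratio of SMC1A guide over control guide, and the exporter gene SLC40A1 came next. FTH1 was the only member with a ratio above 1 on the TMM scale, joined by FTL and IREB2 when libraries were scaled by their totals. Of all tested genes, 54.3% had a ratio below 1 on the TMM scale. TFRC was 2.65-fold lower with the SMC1A guide and was the only member past 2-fold on any scaling tried. All 10 members had at least 100 counts in sum, the minimum used for every gene, and their totals ran from 1365 to 77706 counts. At least 2-fold lower was 1 of 10 members, against 2.32% of the 11321 genes with at least 100 counts, and at least 2-fold higher were 0 of 10, against 5.11% of those genes. At a limit of 1.5-fold, 3 of 10 members were lower, TFRC, SLC40A1 and STEAP3, against 9.06% of all tested genes, and 0 of 10 were higher, against 12.2%. The median log2 ratio of the members, SMC1A guide over control guide, was -0.33, beside -0.05 for all tested genes. Among highly counted genes, the 539 with 10000 counts or more, the median was -0.29. Of the members, only TFRC, SLC25A37, FTL and FTH1 were counted that highly. Scaling by library totals alone moved the median of all tested genes up by 0.13, and the ratios here are those on the TMM scale. In these bulk libraries, fewer cells with an RNA and less of it per cell cannot be told apart.

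**Figure D1:**
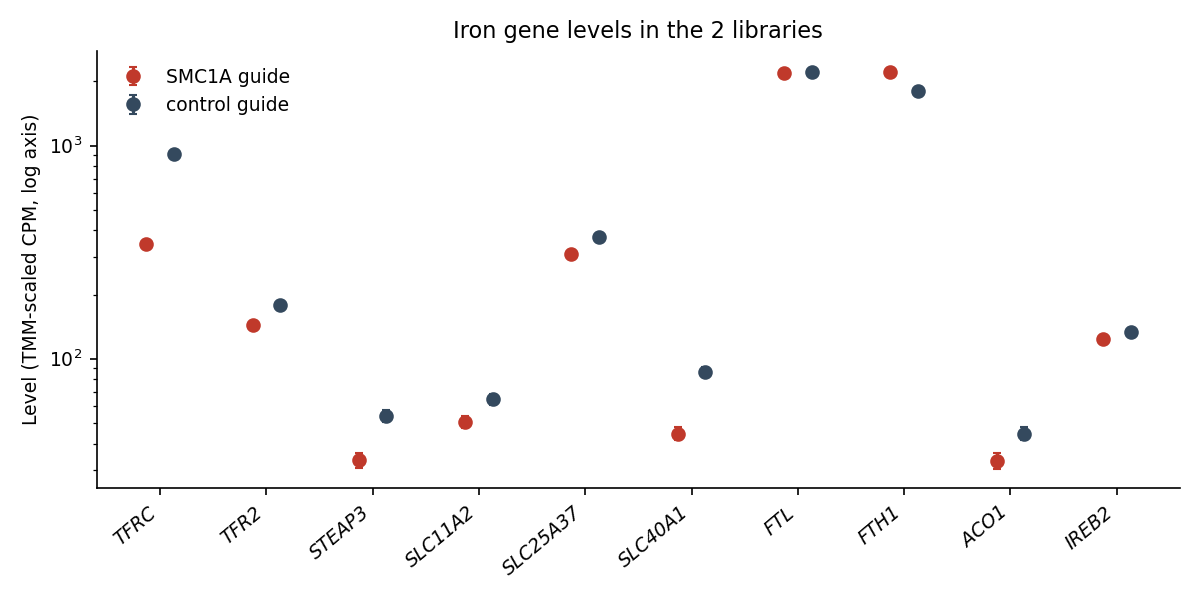
Levels of the 10 iron genes in TMM-scaled CPM on a log axis, in the library with the SMC1A guide (red, left of each pair) and the library with the control guide (dark, right). Bars are exact 95% Poisson intervals of the counts and are mostly smaller than the points; TFRC stands at 346.7 and 918.2 CPM, while FTL stands at 2192 and 2226 CPM.

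TFRC (ENSG00000072274.14, chr3:196027183-196082189, minus strand) encodes transferrin receptor 1, which carries iron-loaded transferrin into the cell. It had 6114 counts with the SMC1A guide and 16110 with the control guide. Its level was 346.7 CPM with the SMC1A guide and 918.2 CPM with the control guide. This is 37.8% of the amount under the control guide (95% counting interval 36.7 to 38.9), a log2 ratio of -1.41 (interval -1.45 to -1.36). Of the 11321 tested genes, 98 had a lower ratio, which is 0.866%. Of the 539 genes with at least 10000 counts, 7 did. On library totals in place of TMM the ratio was -1.28, and it was -1.14 after removal of the trend of the ratio with expression level.

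The promoter of TFRC is shown because it was the only member past 2-fold. RefSeq's table (GRCh38.p14) held entries for 7 of the 10 members. It held none for TFR2, SLC25A37 and FTH1. The RefSeq start of TFRC lies inside the GENCODE span given above, and so does part of its window. Neighbour distances below are from GENCODE starts. The 250 bases before the TFRC start (chr3:196082091-196082340, minus strand, 5′ to 3′) were searched on both strands for the motif TATAAA, the motif GGGCGG, the motif ACGTG and, as a longer form that contains it, the motif CACGTG, and matches are in capitals.
TFRC promoter: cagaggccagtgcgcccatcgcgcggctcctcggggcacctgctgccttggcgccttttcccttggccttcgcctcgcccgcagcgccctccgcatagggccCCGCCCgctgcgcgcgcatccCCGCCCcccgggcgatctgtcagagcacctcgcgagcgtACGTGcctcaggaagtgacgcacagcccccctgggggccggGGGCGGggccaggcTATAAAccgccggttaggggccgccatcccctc

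TATAAA began 33 bases before the start and was present in 10.7% of the 35116 promoters of the table. No other member with an entry held it. ACGTG, the core of hypoxia response elements, began 88 bases before the start of TFRC and 11 bases before that of FTL, and was present in 18.5% of promoters. GGGCGG, a letter string bound by SP1-type factors, was present in at least 1 window of each of the 7 members with an entry. Counted per window, a different unit, it was present in 42.6% of promoters. It occurred 3 times each in the TFRC, SLC40A1 and STEAP3 windows, 6 times in that of ACO1, 2 times in that of FTL, 2 times in 1 of 2 IREB2 windows and 1 time in 1 of 4 SLC11A2 windows. CACGTG was in no window of the 7 members and in 6.34% of promoters. These are matches of letters in windows of equal length and show no binding.

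TFR2 (ENSG00000106327.13, chr7:100620416-100642779, minus strand), the second transferrin receptor, senses iron-loaded transferrin in erythroid and liver cells. It had 2547 counts with the SMC1A guide and 3119 with the control guide, or 144.4 and 177.8 CPM. The log2 ratio was -0.30 (interval -0.38 to -0.22), inside 1.5-fold, and it was -0.17 by library totals and -0.14 after removal of the trend. Counted inside each library, where scaling plays no part, there were 2.40 TFRC counts per TFR2 count with the SMC1A guide (interval 2.29 to 2.52) and 5.17 with the control guide (4.97 to 5.37). The receptor pair thus did not share a ratio.

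After the receptor, iron is reduced by STEAP3, the endosomal ferrireductase of erythroid cells, and leaves the endosome through SLC11A2, the transporter DMT1. STEAP3 (ENSG00000115107.20, chr2:119223831-119265652, plus strand) had 588 counts with the SMC1A guide and 946 with the control guide, which is 33.3 and 53.9 CPM. Its log2 ratio of -0.69 (interval -0.84 to -0.54) lay past 1.5-fold and inside 2-fold. SLC11A2 (ENSG00000110911.17, chr12:50979401-51028566, minus strand) had 893 counts with the SMC1A guide and 1134 with the control guide, or 50.6 and 64.6 CPM, and a log2 ratio of -0.35 (interval -0.48 to -0.22). Its isoforms with and without the 3′ UTR match shown above are counted together. SLC25A37 on chromosome 8 encodes mitoferrin 1, which brings iron into mitochondria for heme synthesis. It had 5483 counts with the SMC1A guide and 6548 with the control guide, or 310.9 and 373.2 CPM, and a log2 ratio of -0.26 (interval -0.32 to -0.21). That ratio was -0.13 by library totals and -0.04 after removal of the trend. Its relative SLC25A28, which encodes mitoferrin 2, had 13.8 CPM with the SMC1A guide and 16.4 CPM with the control guide, so that there were 22.6 SLC25A37 counts per SLC25A28 count with the SMC1A guide (interval 19.8 to 25.8) and 22.7 with the control guide (20.2 to 25.7). The intervals of the mitoferrin ratio overlapped.

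SLC40A1 (ENSG00000138449.11, chr2:189560579-189583758, minus strand) encodes ferroportin, the iron exporter of vertebrate cells. It had 785 counts with the SMC1A guide and 1526 with the control guide. Its level was 44.5 CPM with the SMC1A guide and 87.0 CPM with the control guide, 1.95-fold lower, and the log2 ratio was -0.97 (interval -1.09 to -0.84). The interval held 2-fold, so at this depth the gene cannot be placed on either side of that limit. There were 7.79 TFRC counts per SLC40A1 count with the SMC1A guide (interval 7.23 to 8.40) and 10.6 with the control guide (10.0 to 11.1). The genes for the main entry and exit proteins therefore had the 2 lowest ratios among the members.

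FTL and FTH1 encode the light and heavy chains of the ferritin shell, the heavy chain carrying the ferroxidase activity that loads iron. FTL (ENSG00000087086.15, chr19:48965301-48966878, plus strand) had 38655 counts with the SMC1A guide and 39051 with the control guide, or 2192 and 2226 CPM. Its log2 ratio of -0.02 (interval -0.04 to -0.0019) turned positive by library totals (0.11) and after removal of the expression trend (0.29), so no direction is given. FTH1 (ENSG00000167996.16, chr11:61959718-61967660, minus strand) had 38950 counts with the SMC1A guide and 31755 with the control guide, or 2208 and 1810 CPM. Its log2 ratio of 0.29 (interval 0.27 to 0.31) was the only one above 0 among the members on the TMM scale, and it was 0.42 by library totals and 0.60 after removal of the trend. Within a library there were 1.01 FTH1 counts per FTL count with the SMC1A guide (interval 0.994 to 1.02) and 0.813 with the control guide (0.801 to 0.825). The heavy chain thus made up a larger share of ferritin counts with the SMC1A guide, whatever the scaling. Together the chains had 4400 CPM with the SMC1A guide and 4036 CPM with the control guide, which is 0.460% and 0.386% of all counts. Ferritin counts per TFRC count were 12.7 with the SMC1A guide (interval 12.4 to 13.03) and 4.40 with the control guide (4.32 to 4.47), a 2.89-fold difference between the libraries. Both chains have many processed pseudogenes to which reads could be divided. The 25 FTH1P rows held 100 counts with the SMC1A guide and 58 with the control guide, the 16 FTLP rows held 38 and 31, and none reached 100 counts. With those rows added, ferritin counts per TFRC count were 12.7 with the SMC1A guide and 4.40 with the control guide.

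ACO1 and IREB2 encode iron regulatory proteins 1 and 2, the first of which is a cytosolic aconitase when it holds an iron-sulfur cluster, while the second is degraded when iron is plentiful. ACO1 (ENSG00000122729.19, chr9:32384603-32454769, plus strand) had 585 counts with the SMC1A guide and 780 with the control guide, or 33.2 and 44.5 CPM, and a log2 ratio of -0.42 (interval -0.58 to -0.27). IREB2 (ENSG00000136381.13, chr15:78437431-78501456, plus strand) had 2178 counts with the SMC1A guide and 2351 with the control guide, or 123.5 and 134.0 CPM. Its log2 ratio of -0.12 (interval -0.20 to -0.03) became 0.01 by library totals and 0.03 after removal of the trend, so no direction is given. There were 3.72 IREB2 counts per ACO1 count with the SMC1A guide (interval 3.40 to 4.09) and 3.01 with the control guide (2.78 to 3.27).

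**Figure D2:**
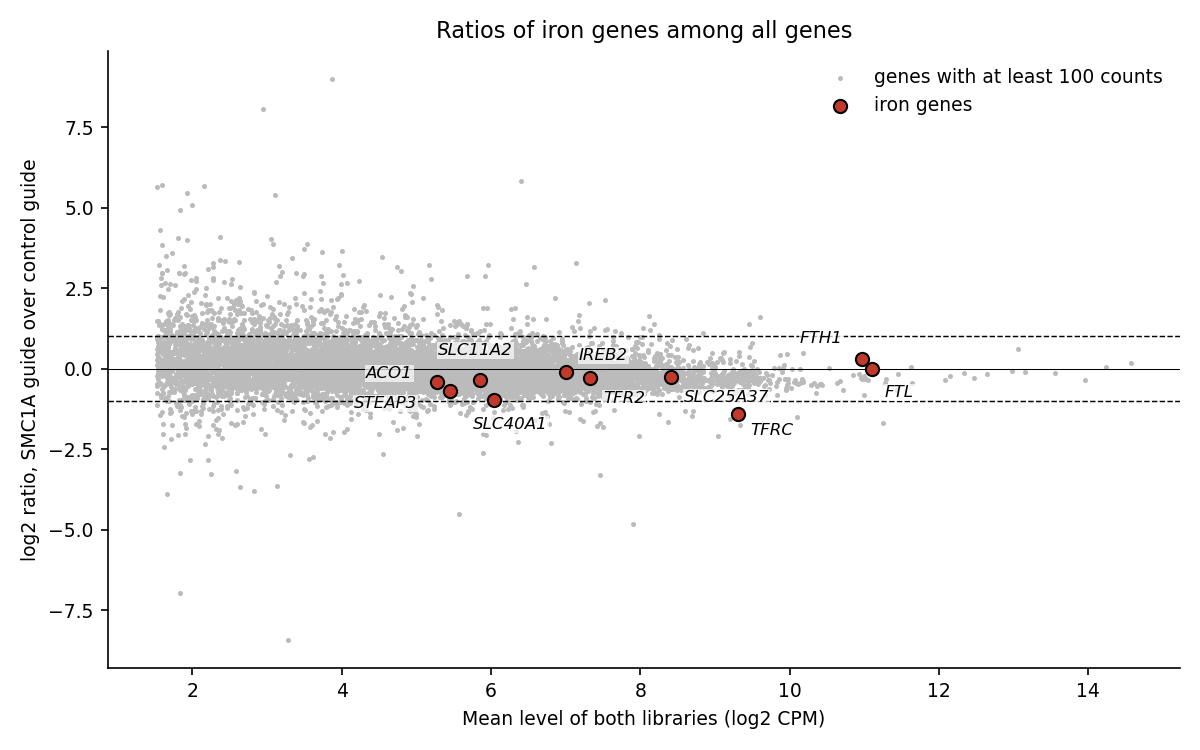
Log2 ratio of SMC1A guide over control guide (vertical) against the mean level of both libraries in log2 CPM (horizontal) for the 11321 genes with at least 100 counts (grey) and the 10 iron genes (red). Dashed lines mark 2-fold; TFRC lies below the lower line at -1.41, SLC40A1 beside it at -0.97, and the other 8 members between -0.69 and 0.29.

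Levels of different genes were set against each other only per kb of merged exons, since longer transcripts give more reads. FTL was highest, at 2496 CPM per kb with the SMC1A guide and 2535 with the control guide, followed by FTH1 at 1088 and 891.6. The ferritin genes stood far above the rest in both libraries. TFRC followed at 44.0 CPM per kb with the SMC1A guide and 116.4 with the control guide, ahead of SLC25A37 at 38.2 and 45.8. TFR2 came next at 28.5 CPM per kb with the SMC1A guide and 35.1 with the control guide. IREB2 (11.4 with the SMC1A guide and 12.4 with the control guide) and SLC40A1 (10.3 and 20.1) exchanged places between the libraries. With the SMC1A guide their counting intervals overlapped (10.95 to 11.9 for IREB2 and 9.57 to 11.02 for SLC40A1). STEAP3 had 7.31 CPM per kb with the SMC1A guide and 11.8 with the control guide. SLC11A2 (4.99 and 6.37) and ACO1 (4.39 and 5.88) were lowest, with overlapping intervals in both libraries. The merged length counts all annotated exons, 7887 bases for TFRC, so genes with long rarely used exons are understated.

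The other genes of iron and heme handling were grouped in 8 lists, none of which held a gene at least 2-fold lower. The heme synthesis enzymes all had 100 counts or more, and 1 of 9 was at least 2-fold higher, with a median log2 ratio of 0.06. It was ALAD, the second enzyme of the pathway, with 24.9 CPM with the SMC1A guide and 10.9 CPM with the control guide (log2 ratio 1.18). ALAS2, the erythroid first enzyme, whose mRNA carries a 5′ UTR iron-responsive element, had 143.4 CPM with the SMC1A guide and 79.0 CPM with the control guide (0.86). Its housekeeping counterpart ALAS1 had 18.3 CPM with the SMC1A guide and 28.3 CPM with the control guide (-0.63). The 2 genes for the first step thus had ratios of opposite sign. Of 14 heme-handling genes, 9 reached 100 counts and none passed 2-fold, with a median of 0.12. The heme exporter gene FLVCR1 had a log2 ratio of -0.45 and the mitochondrial transporter gene ABCB10 one of -0.37, while ABCB6 stood at 0.62 and PGRMC1 at 0.63. HMOX1, which encodes the inducible heme oxygenase, had 0 counts in both libraries.

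The 27 iron-sulfur cluster assembly genes all reached 100 counts, with a median log2 ratio of -0.21, 21 of them below 0, 6 above it and none past 2-fold. Of all tested genes, 54.3% lay below 0. HSPA9, the mitochondrial chaperone of the pathway, had 382.4 CPM with the SMC1A guide and 624.0 CPM with the control guide (-0.71). At the other end of the list, FDX1 stood at 0.13 and ISCA2 at 0.27. Of the genes that handle ferritin or IRP2, 8 of 9 reached 100 counts and none passed 2-fold, with a median of -0.06. NCOA4, the receptor that takes ferritin to lysosomes, had 215.9 CPM with the SMC1A guide and 154.1 CPM with the control guide (0.49). FBXL5, the iron-sensing subunit of the ligase for IRP2, had a log2 ratio of 0.40, HERC2 one of -0.47, and PCBP2, an iron chaperone, one of -0.32. None of the 19 genes for transferrin receptor trafficking was past 2-fold, and their median was 0.02. The clathrin adaptor gene PICALM had 290.7 CPM with the SMC1A guide and 459.7 CPM with the control guide (-0.66), next to EHD1 at -0.63, with DNM2 at 0.22 and AP2S1 at 0.49 on the other side. The 5 other mRNAs with a known iron-responsive element had a median of -0.13, with CDC42BPA at -0.46, EPAS1 at 0.21 and ALAS2 at 0.86.

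Of 16 other genes of iron transport and reduction, 7 reached 100 counts, with a median log2 ratio of -0.08. TF, which encodes transferrin itself and is known mainly from liver, was the 1 past 2-fold, with 179 counts with the SMC1A guide and 68 with the control guide, or 10.1 and 3.88 CPM (1.38, interval 0.98 to 1.81). SRPRB overlaps TF on the same strand and had 967 counts with the SMC1A guide and 1281 with the control guide. How reads were divided between these genes was not tested. The metal importer genes SLC39A14 and SLC39A8 had log2 ratios of -0.53 and -0.28, and the lysosomal channel gene MCOLN1 one of 0.29. Of 10 genes of systemic iron regulation, 4 reached 100 counts, with a median of 0.56. HJV, which encodes the hepcidin coreceptor hemojuvelin, had 369 counts with the SMC1A guide and 27 with the control guide, or 20.9 and 1.54 CPM (3.72, interval 3.20 to 4.39). ERFE, the erythroid hormone gene, stood at 0.46, BMPR1A at 0.67 and ACVR1 at 0.08. HJV and TF thus had low levels with the control guide and were past 2-fold higher with the SMC1A guide, though the TF interval held 2-fold. No gene of these lists was at least 2-fold lower, beside 2.32% of all tested genes. At that share lists of this size would hold few such genes, so this count does not set TFRC apart.

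**Figure D3:**
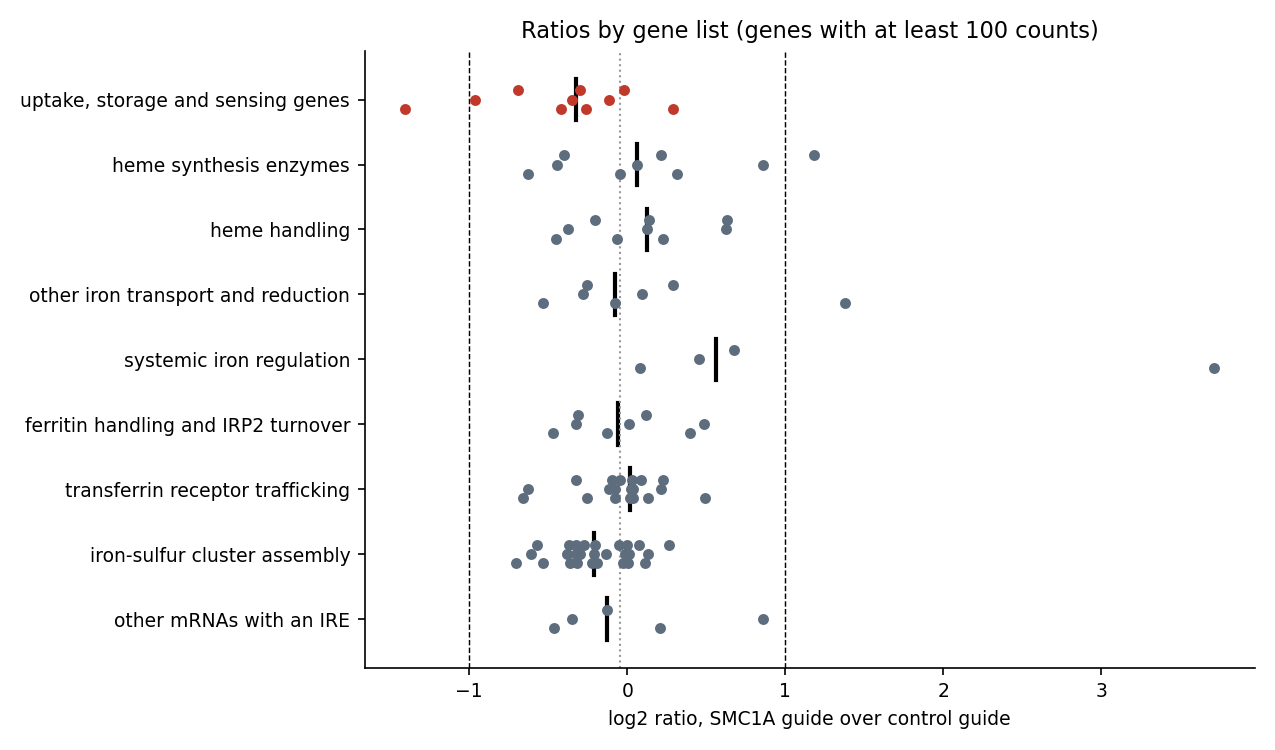
Log2 ratio of SMC1A guide over control guide for each gene with at least 100 counts in the 10 iron genes (red) and the 8 lists of other iron and heme genes (grey). Black bars are list medians, the dotted line is the median of all tested genes and dashed lines mark 2-fold. The iron genes have a median of -0.33 and the iron-sulfur cluster genes one of -0.21, and HJV at 3.72 stands farthest out among the iron and heme genes.

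The surroundings of the members were described through genes with at least 100 counts whose start lay within 250 kb of a member's start. There were 59 such genes, with a median log2 ratio of -0.08, of which 3 lay past 2-fold below 0 and 4 past 2-fold above it, beside 2.32% and 5.11% of all tested genes. Around TFRC there were 3. PCYT1A, 206 kb upstream, had a log2 ratio of 0.01, SDHAP1, 91.9 kb downstream, one of 0.22, and TNK2, 170 kb downstream, had 35.2 CPM with the SMC1A guide and 17.4 CPM with the control guide (1.01). None of the TFRC neighbours lay below 0. All 3 genes past 2-fold lower were neighbours of FTH1, in the fatty acid desaturase cluster downstream of it, while FTH1 itself stood at 0.29. FADS1, 138 kb away, had 82.8 CPM with the SMC1A guide and 268.9 CPM with the control guide (-1.70). FADS2 and FADS3, 175 and 75.6 kb away, had log2 ratios of -1.16 and -1.25. The genes nearest to FTH1, INCENP at 156 kb upstream and RAB3IL1 at 47.4 kb downstream, stood at -0.10 and -0.34.

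Near FTL, HRC, 190 kb downstream, had 28.5 CPM with the SMC1A guide and 3.76 CPM with the control guide (2.90), whereas BAX and GYS1, 10.5 kb upstream and 28.0 kb downstream, had 0.22 and -0.22. Near SLC11A2, METTL7A, 105 kb downstream, had 31.2 CPM with the SMC1A guide and 8.89 CPM with the control guide (1.80), and LETMD1, 19.4 kb upstream, stood at -0.09. Near TFR2, a non-coding gene without a symbol, 64.1 kb downstream, stood at 1.20, with 131 counts with the SMC1A guide and 56 with the control guide. It overlaps LRCH4 on the same strand, which had 919 counts with the SMC1A guide and 724 with the control guide (0.34). Closest to TFR2 were GNB2 at -0.08 and MOSPD3 at 0.18. None of the neighbours of SLC40A1, STEAP3, SLC25A37, ACO1 and IREB2 was past 2-fold. Those nearest to SLC40A1, ASNSD1 at 77.6 kb upstream and WDR75 at 142 kb downstream, stood at -0.12 and -0.45, beside -0.97 for SLC40A1 itself. The others nearest to these members were C2orf76 near STEAP3 (-0.44), ENTPD4 near SLC25A37 (0.75), TOPORS near ACO1 (0.20), and SKIC8 and PSMA4 near IREB2 (-0.12 and -0.18). Annotated genes that overlap a member took almost no reads: of 6 at 5 members, none reached 100 counts and the largest total was 16.

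**Figure D4:**
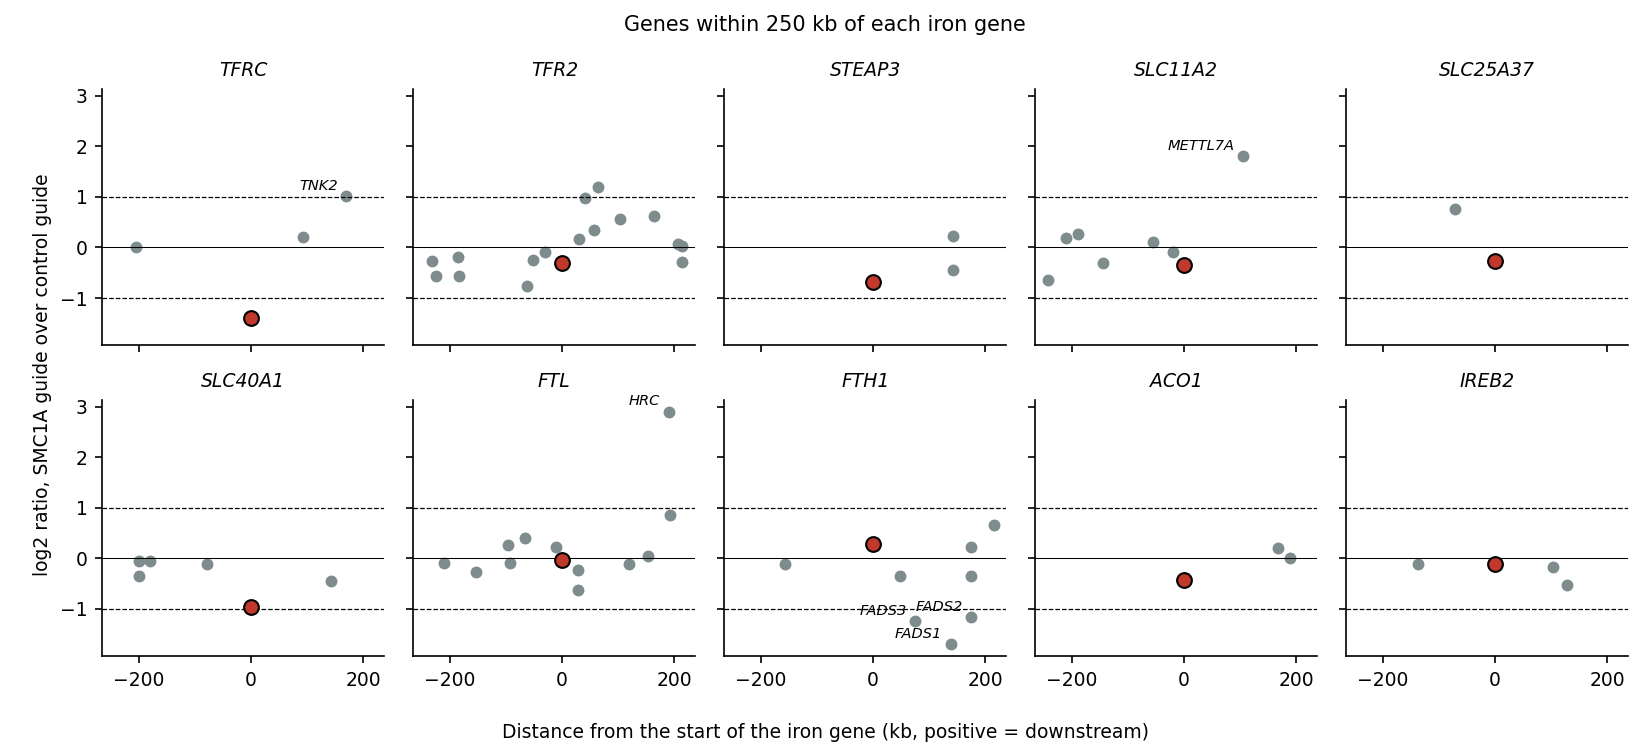
Log2 ratio of SMC1A guide over control guide (vertical) of genes with at least 100 counts against the distance of their start from the start of each iron gene in kb (horizontal), positive downstream in the direction of transcription. FADS1 at -1.70 is the lowest neighbour, near FTH1, and HRC at 2.90 the highest, near FTL.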

How the data were processed

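RNA of 2 K562 libraries, 1 per guide, was poly(A)-selected and sequenced in 100-base read pairs from a directional kit, per the labels' protocols. The authors deposited a gene table of expected counts, all whole numbers and not normalized. The submitters' processing notes name STAR 2.7.10a, Salmon 1.10.1, DESeq2 1.42.1 and builds hg38 and GRCh38. For their roles, the annotation and the strand setting, the answer is not given in the sources used here.

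Counts were scaled by TMM (edgeR 4.0.16, R 4.3.3), and log2 ratios of CPM were taken with a prior count of 1. Intervals of a ratio of 2 counts are exact Clopper-Pearson intervals at 95%, and they cover counting error only, since each guide had 1 library. Without molecular identifiers reads are not independent molecules, so even the counting error may be larger than these intervals show. With 16864207 and 18349209 counts, 3 counts correspond to 0.170 CPM with the SMC1A guide and 0.171 CPM with the control guide. With 1 library per guide no test was made, and genes were called by a size rule of 2-fold at 100 or more summed counts. Symbols, exon lengths and coordinates are from the reference tables and GENCODE 29 (GRCh38), which held 97.9% of the tested genes, and promoters are from RefSeq. The scripts (Python 3.11.15, scipy 1.17.1, pandas 2.3.3) were tested on simulated data.

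The text names all members, SMC1A, the 2 highest and 2 lowest ratios in each list, neighbours past 2-fold and the nearest neighbour on each side, except a few list genes that are not reported here. Markers at 0 and in summed levels are named in addition. The members and lists were chosen with earlier results of these data known. Other scalings (DESeq2 1.42.0 size factors, upper quartile, library totals, TMM leaving out mitochondrial and globin genes), priors, count minimums, size rules and removal of the expression trend were tried.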

Additional observations from a re-analysis of the deposited data

How the results depend on the processing

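TFRC was the only member past 2-fold under every scaling, prior count and count minimum tried, and with a 1.5-fold limit the count was 3. The median log2 ratio of the members, -0.33 on the TMM scale, was -0.32 with DESeq2 size factors, -0.31 with the upper quartile, and -0.20 both by library totals and after removal of the expression trend. TFRC was -1.28 by totals and -1.14 without the trend, and SMC1A -4.62 without the trend. Of 65 alternative values for the other members, 61 kept their sign. The exceptions were FTL (0.11 by totals, 0.29 without the trend) and IREB2 (0.01 and 0.03). SLC25A37 (-0.13 and -0.04) and TFR2 (-0.17 and -0.14) kept their sign and moved toward 0. The cause was not tested. Among all genes past 2-fold, the share that was higher was 68.8% on the TMM scale (579 higher, 263 lower) and 79.7% by totals (766 and 195). With at least 20 counts, 1361 genes were higher and 518 lower, and with at least 500 counts 199 and 140. No paired analysis was possible because each guide had 1 library. Depth limits SLC40A1, whose interval held 2-fold. It also limits some genes called past 2-fold by their ratio. The log2 intervals of ALAD (0.94 to 1.44), TF (0.98 to 1.81), TNK2 (0.82 to 1.22) and CD3G (0.79 to 1.74) held 2-fold. So did those of FADS2 (-1.34 to -0.98) and of the non-coding gene near TFR2 (0.76 to 1.70).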

Other observations

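Some genes of systemic iron regulation and heme handling lay under the minimum of 100 counts and are given here as values chosen after they were seen. HFE, which encodes a partner of the transferrin receptors, had 54 counts with the SMC1A guide and 6 with the control guide (log2 ratio 2.97, counting interval 1.95 to 4.67). NEO1, which encodes a hemojuvelin receptor, had 15 counts with the SMC1A guide and 2 with the control guide (2.41, interval 0.80 to 6.07). ABCG2, which encodes a heme and drug exporter, had 20 counts with the SMC1A guide and 0 with the control guide. Set over a floor of 3 counts with the control guide, its level was 6.63-fold higher, without counting error. Its log2 counting interval began at 2.30 and had no upper end.

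Around HJV, none of the 12 genes with at least 100 counts within 250 kb was past 2-fold, and their median log2 ratio was -0.05. Around TF, none of 4 was, with a median of -0.36. Around HFE, 3 of 11 were at least 2-fold higher, beside 5.11% of all tested genes, with a median of 0.78, among them TRIM38 at 1.499 and H2BC5 at 1.19. Most of these 11 were histone genes of 1 cluster, H2BC5 among them, and so are related to each other.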
